A study of Rattus norvegicus with 8 samples.

Results

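Socs3 (ENSRNOG00000002946), Cxcl9 (ENSRNOG00000022242) and Tnfaip6 (ENSRNOG00000050792) are 3 genes induced by inflammatory cytokines, and their transcripts were followed in the dorsal root ganglia (DRG) of male and female rats after nerve injury. They were 3 of the 32623 genes in the table and were chosen by name with their values in every comparison already known, so their levels and fold changes are descriptions with no p of their own, and where the fit over all genes called one of them, nothing is read from the call. RNA was sequenced from 8 libraries, and each library held the pooled ipsilateral L4-L6 DRGs of 1 adult Sprague Dawley rat. The 4 groups of 2 rats were untreated (naïve) males, naïve females, males after chronic constriction injury (CCI) and females after CCI, in which silk ligatures are tied loosely around the sciatic nerve. The DRGs were taken on day 14. The controls had no sham surgery, the rats were gonadally intact, and the stage of estrus of the females was not identified. The design asks whether the DRG of naïve males and females differ, what CCI changes in each sex, and whether that change differs between the sexes.

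Socs3 encodes suppressor of cytokine signaling 3, which is induced by STAT3 and binds cytokine receptors of the gp130 family and their Janus kinases, so that it shuts off the signal that induced it. In injured sensory neurons STAT3 signalling promotes axon growth, and Socs3 restrains it. Cxcl9 encodes a chemokine that is induced by interferon gamma and attracts activated T cells and natural killer cells through the receptor CXCR3. Tnfaip6 encodes TSG-6, a secreted protein that is induced by TNF and interleukin 1, binds hyaluronan and transfers heavy chains of inter-alpha-inhibitor onto it, and is known for dampening inflammation.

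The 250 bases upstream of the start sites of Cxcl9 and Tnfaip6 are shown because factors that answer these cytokines bind promoters. They were taken from RefSeq on the assembly GRCr8, whereas the reads were aligned to rn6, and no coordinates were carried from one build to the other. The Cxcl9 window was chr14:16006916-16007165 on the plus strand, and that of Tnfaip6 was chr3:56911148-56911397 on the plus strand. Each runs 5′ to 3′, and capitals mark motif matches.
Cxcl9: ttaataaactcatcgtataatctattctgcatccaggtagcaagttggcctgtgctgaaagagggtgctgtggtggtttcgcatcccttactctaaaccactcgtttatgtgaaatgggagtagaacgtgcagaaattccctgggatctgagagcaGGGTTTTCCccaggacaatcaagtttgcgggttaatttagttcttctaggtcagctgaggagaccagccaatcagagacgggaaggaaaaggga
Tnfaip6: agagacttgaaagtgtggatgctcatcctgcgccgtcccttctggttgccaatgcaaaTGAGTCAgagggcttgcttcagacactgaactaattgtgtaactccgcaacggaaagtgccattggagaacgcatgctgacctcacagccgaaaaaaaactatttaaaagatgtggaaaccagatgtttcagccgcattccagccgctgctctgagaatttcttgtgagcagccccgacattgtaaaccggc

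The windows were searched on both strands for the STAT motif TTCNNNGAA, an NF-kB-type motif GGNNTTTCC, the AP-1 motif TGANTCA, the interferon-stimulated response element (GAAA, any pair of bases, GAAA) and the TATA box TATAAA. The motifs were picked with the results known, and no 2 matches in the printed windows overlapped. Cxcl9 held 1 NF-kB-type match, GGGTTTTCC, that began 94 bases upstream of the start site, and 5.19% of the 33469 RefSeq windows of this length held that motif. Tnfaip6 held 1 AP-1 match, TGAGTCA, that began 192 bases upstream, and 6.34% of windows held that motif. No letters of the STAT motif, the response element or the TATA box were found in either window, against 7.67%, 3.41% and 12.9% of all windows. A match is a stretch of letters and not a shown binding site. The Socs3 window, on chromosome 10, began inside the gene's own RefSeq span and is therefore not printed.

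Levels are CPM, which are counts put on a common library size with TMM factors to remove differences in library size and composition. Library totals ranged from 39489103 to 60818457 counts, and the rats of each group differed by more than counting noise over all genes. In bulk tissue, fewer cells of a type and less RNA per cell cannot be told apart. CPM does not correct for gene length, so levels are compared between groups and not between genes.

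Socs3 gave 141 and 123 counts in naïve females and 315 and 247 after CCI, while the males had 279 and 298 when naïve and 321 and 264 after CCI. As CPM the females had 2.98 and 2.91 when naïve and 8.14 and 6.32 after CCI, and the males 5.33 and 5.46 when naïve and 5.50 and 5.45 after CCI. The naïve females were the lowest of the 8 rats and the CCI females the highest, and the males lay between them with naïve and CCI rats overlapping. The group means were 2.94 ± 0.0514 CPM in naïve females, 5.40 ± 0.0928 in naïve males, 5.47 ± 0.0371 in CCI males and 7.23 ± 1.29 in CCI females (SD, n = 2 rats).

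Cxcl9 gave 188 and 148 counts in naïve females and 385 and 279 in the injured ones, against 254 and 232 in naïve and 280 and 234 in injured males. This corresponded to 3.97 and 3.50 CPM in naïve and 9.95 and 7.14 CPM in injured females, and to 4.85 and 4.25 CPM in naïve and 4.80 and 4.83 CPM in injured males. The CCI females were again above every other rat, and the males overlapped. Group means ran from 3.74 ± 0.336 CPM in naïve females through 4.55 ± 0.425 in naïve males and 4.81 ± 0.0219 in CCI males to 8.54 ± 1.99 in CCI females (SD, n = 2 rats). The naïve females lay below the naïve males, but the gap between the nearest rats of the 2 groups was smaller than the gap between the rats within either group.

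Tnfaip6 gave 82 and 59 counts in naïve females and 305 and 371 in females after CCI, and 80 and 94 in naïve males and 113 and 91 in males after CCI. In CPM the naïve females had 1.73 and 1.39 and the injured females 7.88 and 9.49, and the naïve males had 1.53 and 1.72 and the injured males 1.94 and 1.88. The naïve rats of both sexes overlapped, the CCI males lay just above them, and the CCI females were far above the rest. The means were 1.56 ± 0.239 CPM in naïve females, 1.63 ± 0.138 in naïve males, 1.91 ± 0.0413 in CCI males and 8.68 ± 1.14 in CCI females (SD, n = 2 rats).

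**Figure D1:**
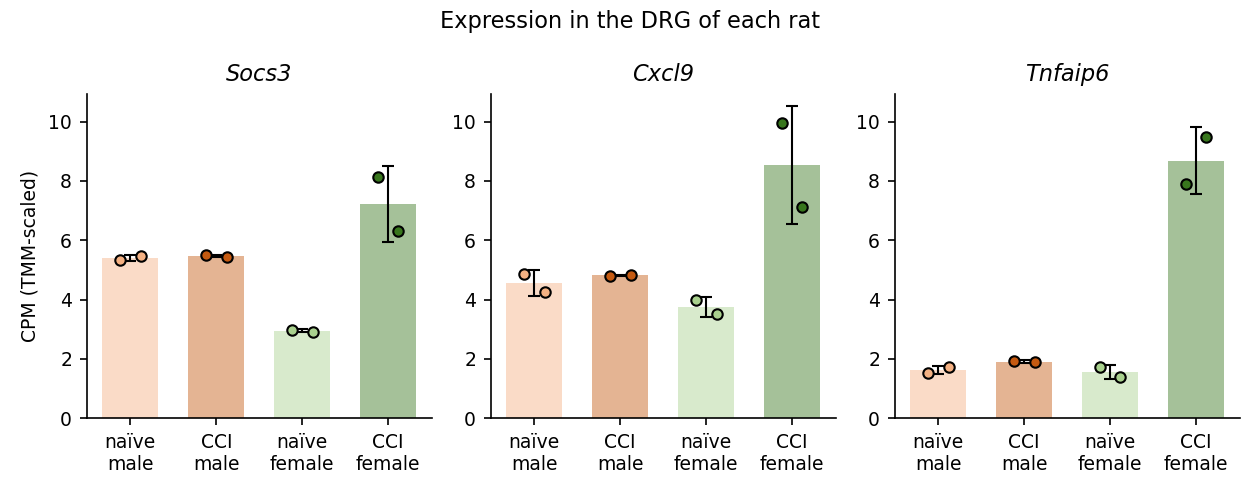
Expression of Socs3, Cxcl9 and Tnfaip6 in CPM (TMM-scaled) in the 4 groups; points are single rats, bars are means and whiskers are the SD of 2 rats. Both CCI females lie above the other rats for all 3 genes, and Socs3 is lowest in naïve females at 2.94 CPM.

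Both CCI females exceeded all other rats for 3 of 3 genes, a pattern that 6.80% of the 16988 genes tested showed. The rats of this group also differed most between each other in absolute terms. The first CCI female had 1.29 times the Socs3 level of the other rat (95% counting interval 1.09 to 1.53) and 1.39 times the Cxcl9 level (1.19 to 1.63). For Tnfaip6 the order was turned, and the second rat had 1.20 times the level of the first (1.03 to 1.41). In the other groups every interval of the ratio between the rats included 1, the widest being that of Tnfaip6 in naïve females, at 1.24 (0.879 to 1.77). These intervals cover counting error only.

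The naïve sexes were compared to see which transcripts differ without injury. Socs3 was lower in naïve females than in naïve males, with a log2 fold change (log2FC) of -0.87 (SE 0.157), a ratio of means of 0.545. Both naïve females were below both naïve males, as for 30.5% of all genes. Cxcl9 differed by -0.28 (SE 0.176) on the log2 scale and Tnfaip6 by -0.05 (SE 0.253). A gene was called when edgeR's quasi-likelihood test gave an adjusted p under 0.05 over all 16988 genes and the absolute log2FC was above 0.5. In this comparison 0 of the 3 genes were called, beside 0.0706% of all genes. DESeq2 and an edgeR fit over all 8 libraries each called 1 of the 3, Socs3.

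In males, the levels after CCI stayed near those of naïve rats. The log2FC was 0.02 (SE 0.120) for Socs3, 0.08 (SE 0.137) for Cxcl9 and 0.23 (SE 0.194) for Tnfaip6. For Tnfaip6 both CCI males were above both naïve males with a ratio of means of 1.17, and 36.3% of all genes had both CCI males higher. None of the 3 was called (0 of 3), although 21.6% of all genes were called in males.

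In females, CCI went with higher levels of all 3 genes. Socs3 was 2.46-fold higher (log2FC 1.29, SE 0.189), Cxcl9 2.29-fold (log2FC 1.18, SE 0.200) and Tnfaip6 5.55-fold (log2FC 2.46, SE 0.198). By log2FC, Tnfaip6 ranked 80 of the 16988 genes, Socs3 303 and Cxcl9 356. All 3 were called higher, against 5.69% of all genes called and 3.69% called higher, and since the genes were chosen with this result known, nothing is read from the count. With either CCI female left out 1 of the 3 stayed called, Tnfaip6, and the log2FC over the libraries left out ranged from 1.10 to 1.47 for Socs3, 0.93 to 1.41 for Cxcl9 and 2.32 to 2.62 for Tnfaip6.

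The CCI females were also set directly against the CCI males. Tnfaip6 was 4.56-fold higher in females (log2FC 2.19, SE 0.167) and Cxcl9 1.78-fold (log2FC 0.83, SE 0.188), whereas Socs3 was 1.32-fold higher (log2FC 0.41, SE 0.166). Only Tnfaip6 was called (1 of 3), beside 1.06% of all genes called and 0.524% called higher, and it ranked 71 by log2FC. It was no longer called (0 of 3) with either CCI female left out, at log2FC values of 2.05 to 2.32, while DESeq2 called 2 of the 3, Tnfaip6 and Cxcl9. Between the sexes Socs3 was thus lower in the naïve females and higher in the injured ones.

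The change after CCI in females minus that in males, fitted as an interaction term over all 8 libraries, was 1.28 (SE 0.220) for Socs3, 1.11 (SE 0.263) for Cxcl9 and 2.24 (SE 0.269) for Tnfaip6 on the log2 scale. The term was called at an adjusted p under 0.05 for 2 of the 3 genes, Socs3 and Tnfaip6, beside 1.59% of all genes called and 1.04% called in this direction. These calls depended on single libraries. Tnfaip6 alone stayed called without the second naïve male or the second naïve female, at 2.15 and 2.09, and 0 of the 3 were called without any other library. DESeq2 and a fit without the filter on low counts called 3. The 5 comparisons share libraries, so their values for a gene are not independent.

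**Figure D2:**
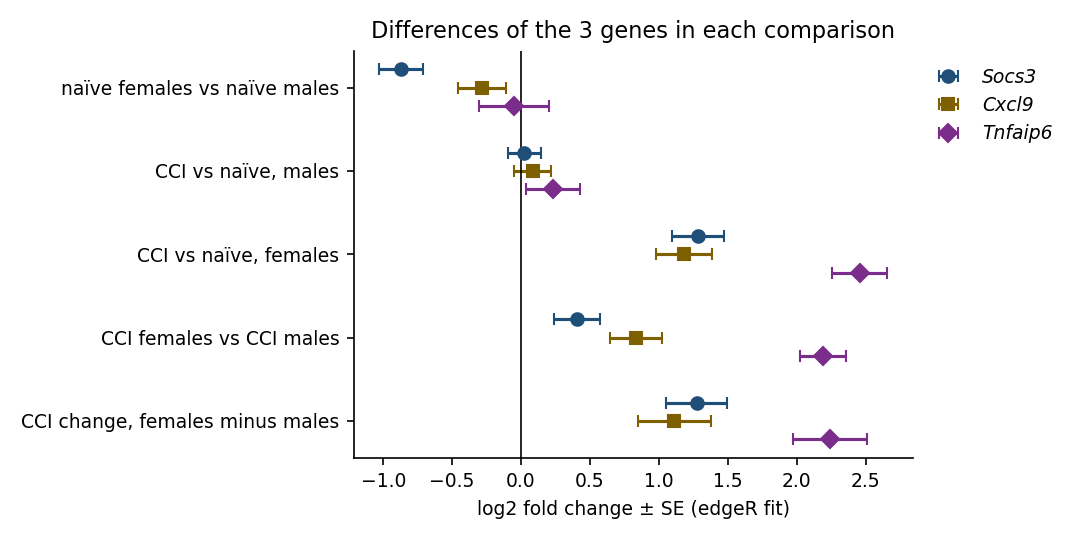
Log2 fold changes of Socs3, Cxcl9 and Tnfaip6 with their SE in the 5 comparisons, from the edgeR fits. The 3 genes lie near 0 in males (0.02 to 0.23) and between 1.18 and 2.46 in females after CCI, and only Socs3 lies well below 0 between the naïve sexes, at -0.87.

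The genes around Socs3, Cxcl9 and Tnfaip6 in their pathways were taken from 11 lists of 129 symbols. Identifiers were paired with symbols only for genes that the study itself tabulated, so 15 of the 129 could be analysed here, and being picked by the study from these libraries they are no independent evidence of a direction. Of the 22 closest partners, among them Il6, Stat3, Cxcl10, Cxcr3, Tnf and Has2, only Socs2 had an identifier, and the other 21 were not analysed here. Of the 15 genes, 1 was called higher and 3 lower in males after CCI, and 3 were called higher and 4 lower in females. Over all genes, 21.6% were called in males (9.05% higher) and 5.69% in females (3.69% higher). Their median log2FC was -0.11 in males and 0.22 in females, beside -0.01 and -0.02 over all genes.

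Among the ligands of the gp130 family, 1 of 9 had an identifier and was analysed. Cntf, a survival factor made by Schwann cells, fell in CCI males from 117 ± 22.6 to 71.1 ± 5.71 CPM (log2FC -0.71, edgeR adjusted p = 0.0181). It was higher in CCI females, at 144 ± 12.3 CPM, than in CCI males (log2FC 1.02, edgeR adjusted p = 0.0102). Naïve females had 164 ± 25.8 CPM, with a log2FC of 0.49 against naïve males (edgeR adjusted p = 0.171). After CCI the log2FC of Cntf in females was -0.20 (edgeR adjusted p = 0.319). Its interaction term was 0.53 (edgeR adjusted p = 0.193), so a difference in its change between the sexes was not called.

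Lifr, the receptor subunit that pairs with gp130 for LIF and CNTF, was the only one of 10 receptor genes analysed. It rose in both sexes after CCI, in males from 241 and 259 to 489 and 475 CPM (log2FC 0.95, edgeR adjusted p = 0.00565) and in females from 283 and 313 to 463 and 512 CPM (log2FC 0.70, edgeR adjusted p = 0.00661). Of 11 kinases and STATs, Jak3 and Stat6 were analysed. Neither was called (0 of 2), with log2FC values of 0.41 and 0.22 in females. Socs2, a family member that restrains growth hormone signalling, was the only other SOCS gene analysed. Its levels were 32.4 and 29.4 CPM in naïve and 17.6 and 17.7 CPM in injured males, and 14.4 and 19.1 CPM in naïve and 12.1 and 12.8 CPM in injured females, so that the naïve males were above all other rats. It fell in males (log2FC -0.80, edgeR adjusted p = 0.00565). In females its log2FC was -0.44 (edgeR adjusted p = 0.104). The interaction term of Socs2 was 0.38 (edgeR adjusted p = 0.257) and was not called. Females minus males, its log2FC was -0.88 in naïve rats (edgeR adjusted p = 0.0954) and -0.50 after CCI (edgeR adjusted p = 0.0619). DESeq2 called both, the fit over all 8 libraries called the naïve difference, and the fit without the filter called that after CCI.

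Near Cxcl9, 0 of 5 genes of the CXCR3 axis and 2 of 15 of the interferon gamma list had an identifier and were analysed. The 2 were Gbp2, an interferon-induced GTPase, and Tap1, a peptide transporter for antigen presentation. Neither was called (0 of 2), and in females Gbp2 had a log2FC of 0.60 (edgeR adjusted p = 0.0522) and Tap1 one of 0.22. Of 10 other CXC chemokines, Cxcl14 rose in CCI females from 1.14 ± 0.0586 to 3.14 ± 0.677 CPM (log2FC 1.45, edgeR adjusted p = 0.0192), and Pf4, a platelet chemokine, fell from 6.44 ± 3.36 to 2.30 ± 0.107 CPM (log2FC -1.49, edgeR adjusted p = 0.0409). Ccl21, a lymphoid chemokine, was the only one of 13 CC chemokines analysed. It was higher in CCI females than in CCI males, at 10.3 ± 0.0552 against 5.62 ± 0.247 CPM (log2FC 0.88, edgeR adjusted p = 0.0417). Naïve females also had more than naïve males, at 8.81 ± 0.392 against 4.92 ± 1.59 CPM (log2FC 0.84, edgeR adjusted p = 0.132). The interaction term of Ccl21 was 0.04 (edgeR adjusted p = 0.948).

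Near Tnfaip6, Vcam1 was the only gene analysed of the 20 in the TNF and interleukin 1 list. It was not called (log2FC -0.32 in females). Of the genes of hyaluronan synthesis, breakdown and receptors, 0 of 13 had an identifier. Of the 16 matrix partners 4 were analysed, and 1 rose and 3 fell in CCI females. Thbs1, thrombospondin 1, which binds TSG-6, rose from 24.3 ± 3.34 to 45.1 ± 3.77 CPM (log2FC 0.89, edgeR adjusted p = 0.00639). The 3 that fell were link proteins that fasten proteoglycans to hyaluronan. Hapln1 fell from 72.8 ± 11.01 to 38.9 ± 2.03 CPM (log2FC -0.91, edgeR adjusted p = 0.00458), Hapln2 had a log2FC of -1.11 (edgeR adjusted p = 0.0325) and Hapln4 one of -0.59 (edgeR adjusted p = 0.0158). In males Hapln2 fell (log2FC -1.86, edgeR adjusted p = 0.00565), and Hapln1 had a log2FC of 0.16 (edgeR adjusted p = 0.289). All calls of pathway genes that rest on the CCI females were lost with either of these rats left out, and all those in males were lost without the first CCI male, where edgeR called 0 genes in all. In the fit over all 8 libraries Pf4 (edgeR adjusted p = 0.0513) and Ccl21 (edgeR adjusted p = 0.0869) missed the threshold, as did Ccl21 with the replicate number as a block (edgeR adjusted p = 0.103).

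**Figure D3:**
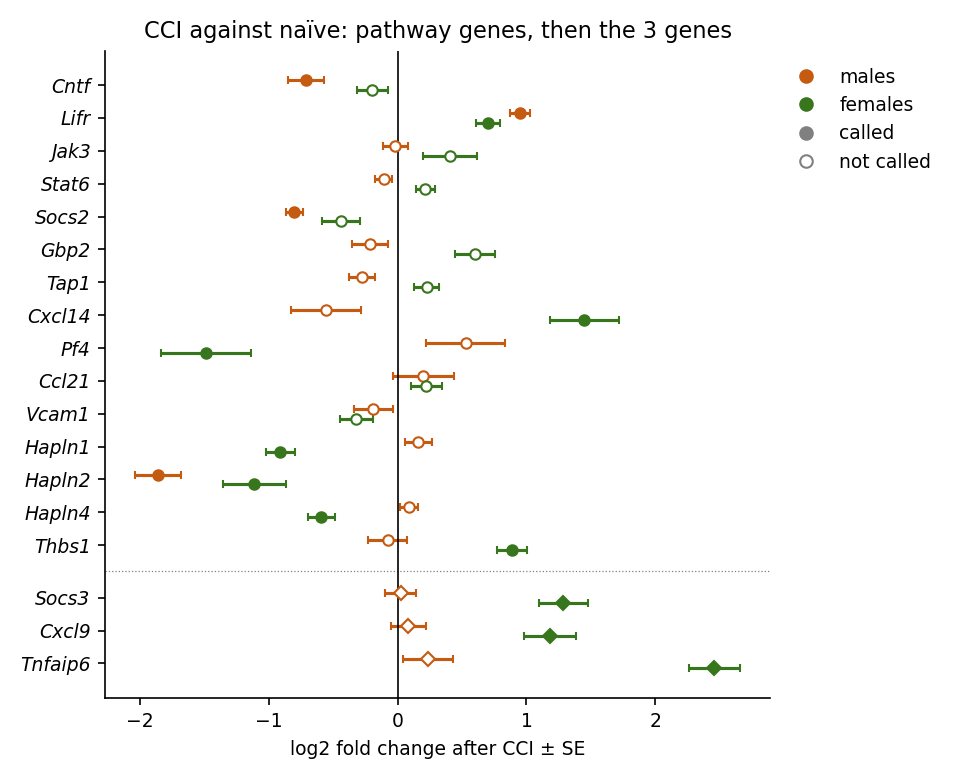
Log2 fold changes after CCI with their SE for the 15 pathway genes analysed (circles) and for Socs3, Cxcl9 and Tnfaip6 (diamonds) in males and females. Filled symbols were called. Lifr was called higher in both sexes and Hapln2 lower in both, whereas Socs3, Cxcl9 and Tnfaip6 were called in females alone in these fits.

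Markers of other cell types were read beside the 3 genes, because each can come from resident or invading cells, and their part in the result was not tested. As for the pathway genes, symbols were known only for genes that the study tabulated, here 32 of 97 markers. The counts of markers called are therefore no independent evidence of a direction. Of 12 macrophage markers only Cd163 was analysed, at 3.63 and 5.25 CPM in naïve and 5.71 and 5.96 CPM in injured females. In males Cd163 had 2.08 and 2.15 CPM when naïve and 1.54 and 1.90 CPM after CCI. It was higher in CCI females than in CCI males (log2FC 1.77, edgeR adjusted p = 0.0200), a call that was lost with either CCI female left out and with the replicate number as a block (edgeR adjusted p = 0.0646), and its log2FC after CCI in females was 0.39 (edgeR adjusted p = 0.260). None of the 12 markers of T and NK cells, the cells that CXCL9 attracts, had an identifier, so they were not analysed here.

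The blood genes moved against the 3 genes in females. All 7 red cell genes analysed fell in females after CCI. Their summed level went from 1351 and 2028 CPM in naïve females to 168 and 212 in CCI females. In males the sum was 130 and 1388 when naïve and 252 and 222 after CCI. Near-identical globin genes may share reads, which was not tested, so only the sum is given. That sum also holds Alas2 and Slc4a1, which are not globin genes. Of the 7 genes, 6 missed the threshold in the fit over all 8 libraries. The 2 B cell genes (of 6) and the 1 neutrophil gene (of 8) fell in CCI females as well, but missed it in that fit too. Muscle genes (3 of 10) summed to 45.9 and 47.5 CPM in CCI males but 4.16 and 3.73 in CCI females. The sums were 7.40 and 9.74 CPM in naïve males and 17.4 and 5.11 in naïve females. Of the Schwann cell and myelin genes 5 of 5 fell in males and 2 of 5 in females, and of the fibroblast genes 4 of 5 and 0 of 5, beside 2126 of all 16988 genes called lower in males and 340 in females. In females Drp2 and Dcn passed an edgeR adjusted p of 0.05 but not the log2FC threshold, at -0.49 and -0.37. Differences of these lists between the sexes were not tested as sets. For single genes, the interaction was called for 3 of the 5 Schwann cell and myelin genes and 1 of the 5 fibroblast genes. All of those called had a more positive change in females, a direction called for 1.04% of all genes. Those calls were lost without most single libraries. Of the fibroblast genes not called, Col1a1, Dcn and Pdgfra also had a positive term. Dpt had a negative one, at -1.35 (edgeR adjusted p = 0.0790), with a log2FC of 0.69 in males and -0.68 in females. Fabp7, the 1 satellite glia marker analysed of 6, fell in both sexes. Pdgfrb, the 1 endothelial and pericyte marker analysed of 8, fell in males. Of 12 sensory neuron genes 6 were analysed, with a lowest level of 179 CPM in any library. After CCI 6 were called higher in males and 1 in females, beside 9.05% and 3.69% of all genes. Because markers were analysed only where the study had tabulated them, their shares called cannot be weighed against those over all genes. All of these marker calls in males were lost without the first CCI male. Markers of neurons, satellite glia and Schwann cells, which make up the DRG, were present in every library.

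The 3 genes resembled each other over the 8 libraries, as their choice implies. Pearson's r of log2 CPM was 0.840 between Socs3 and Cxcl9 (Spearman's rho 0.786), 0.665 between Socs3 and Tnfaip6 (rho 0.857) and 0.907 between Cxcl9 and Tnfaip6 (rho 0.690). The named genes most like each were sought among 1923 genes with a symbol and a mean of at least 1 CPM. These are mostly genes that the study tabulated, and the 8 points share groups and libraries, so the values are descriptions only.

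Sbno2, a co-regulator induced downstream of STAT3, was most like Socs3 (r = 0.945, rho 0.738), with mean levels of 27.6 CPM in naïve and 50.03 CPM in injured females, and 42.1 CPM in naïve and 39.7 CPM in injured males. Ahr, the aryl hydrocarbon receptor, followed (r = 0.940, rho 0.929), then Scube1, Itga7 and Aldh1l2 (r from 0.927 to 0.935). As for Socs3, their mean levels were lowest in naïve females and highest in CCI females. The genes most like Cxcl9 included the interleukin 4 receptor gene Il4r (r = 0.949, rho 0.905), Kif22, Phldb3 and the complement gene C4b (r = 0.941, rho 0.881). Il4r averaged 21.8 CPM in CCI females against 12.2 to 15.3 CPM in the males, and C4b 7.71 CPM in CCI females against 3.58 to 3.95 CPM in the males. The genes most like Tnfaip6 included the cytoskeletal linker Macf1 (r = 0.975, rho 0.929), Golgb1, the matrix protein gene Reln and the cell cycle inhibitor Cdkn1a, whose r of 0.949 went with a rho of only 0.524. Cdkn1a averaged 13.6 CPM in CCI females and 6.60 to 7.18 CPM in the other groups.

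**Figure D4:**
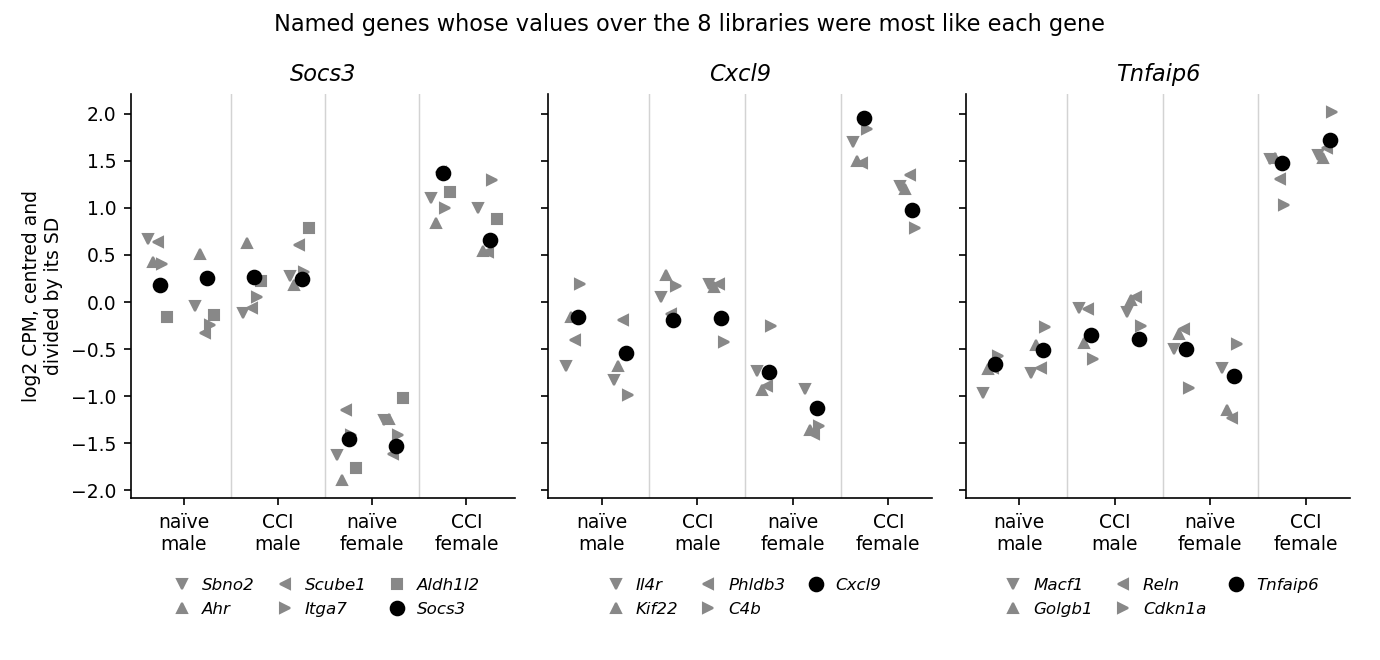
Log2 CPM in each of the 8 libraries, centred and divided by its SD, for Socs3, Cxcl9 and Tnfaip6 (black) and the genes reported of the 5 named genes with the highest r to each (grey). In the Socs3 panel the naïve females lie lowest, and in the Tnfaip6 panel the CCI females lie above all other rats.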

How the data were processed

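Per the paper's methods, the authors made strand-specific poly(A) libraries and sequenced them as paired ends in 2 batches. CASAVA 1.8.2 and HISAT2 are named in the submitters' processing notes. Reads were aligned to rn6 and cleared of ribosomal RNA, and the authors deposited raw counts per Ensembl gene from featureCounts, with no normalization or batch correction. To look for batch effects, the authors pooled samples of each batch, sequenced them again in a single lane and calculated Pearson correlations. The batch of each library is not given in the sources used here, so batch and group cannot be told apart.

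The counts were analysed in R 4.3.3 with edgeR 4.0.16. Of 32623 genes, 16988 passed filterByExpr (minimum count 10, minimum total count 15). Groups were compared with TMM scaling by the quasi-likelihood test on the 4 libraries concerned, and the interaction of sex and CCI on all 8. P-values were adjusted over all genes by the Benjamini-Hochberg method, and calls needed an adjusted p under 0.05 and, except for the interaction, an absolute log2FC above 0.5. For a single gene, the smallest p that exact permutation of 2 against 2 rats allows is 0.333. Correlations used log2 CPM with a prior count of 2. SEs are the log2FC divided by the square root of F. The fits were run on simulated data in which changes were planted in the CCI males alone. Recovery of changes planted in females was therefore not tested.

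Alternatives were DESeq2 1.42.0, its size factors in edgeR, no filter on low counts, the replicate number as a block, a fit over all 8 libraries and leaving out each library. Symbols were known for 1961 identifiers, 11.5% of genes tested. The 3 genes, the lists and the motifs were chosen with earlier results of these data known. Named are the 3 genes, the list genes called (up to 4 per direction and comparison), the closest partners, and the 5 genes most like each, of which 2 genes are not reported here. The columns hold only counts per library.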

Additional observations from a re-analysis of the deposited data

Results flagged for a closer look

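The interaction of sex and CCI, tested by edgeR's quasi-likelihood test over all 8 libraries, passed an adjusted p of 0.05 for 10 of the genes named. Over all genes tested, 1.59% passed. List genes were named mainly because they were called in a comparison, so nothing is read from the count of 10. For Socs3 and Tnfaip6 the change in females minus that in males was 1.28 and 2.24 on the log2 scale, which is a description because both were chosen with it known. Among the matrix partners of TSG-6 it was -1.06 for Hapln1, which fell in females. Among the cell type markers the difference was 0.67 for the collagen gene Col3a1 and 0.86 for the pericyte gene Pdgfrb. It was 1.17 for Prx, 1.03 for Mag and 1.03 for Drp2, which are genes of myelinating Schwann cells. For the muscle genes Casq1 and Mybpc1 it was -2.07 and -4.27. Each of the 8 calls other than those of Socs3 and Tnfaip6 was lost in at least 6 of the 8 fits that left out 1 library. The call of Socs3 was lost in every such fit. That of Tnfaip6 was lost in all except those without the second naïve male or the second naïve female. Groups of 2 rats are too small to look for single outlying rats.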

How the results depend on the processing

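Under the alternatives that kept every library, all 72 values of the log2FC of Socs3, Cxcl9 and Tnfaip6 moved by less than the spread between rats. With 1 library left out, no called value changed sign. Socs3 then ranged from -0.89 to -0.85 between naïve sexes, -0.0013 to 0.041 in males, 1.10 to 1.47 in females, 0.21 to 0.58 between CCI sexes and 1.08 to 1.45 for the interaction. Cxcl9 ranged from 0.57 to 1.05 between CCI sexes and 0.85 to 1.33 for the interaction. Tnfaip6 ranged from 0.14 to 0.32 in males, 2.05 to 2.32 between CCI sexes and 2.09 to 2.41 for the interaction. The count of these 3 genes called rose from 0 to 1 between naïve sexes with DESeq2 and with the fit over all 8 libraries, and from 1 to 2 between CCI sexes with DESeq2. With 1 library left out it was 0 in both the naïve and the male comparison, 1 to 3 in females, 0 to 1 between CCI sexes and 0 to 1 for the interaction. Over all genes, the 12 calls between naïve sexes became 1014 with DESeq2, 130 without the filter, 6 with the replicate number as a block and 906 with the fit over all 8 libraries. The 180 calls between CCI sexes became 389, 284 and 68 with DESeq2, without the filter and with the block. The 270 interaction calls became 1594 with DESeq2 and 1032 without the filter. Leaving out 1 library gave 6 to 327 calls between naïve sexes, 0 to 3722 in males, 84 to 1836 in females, 32 to 656 between CCI sexes and 0 to 563 for the interaction. The cause of these shifts was not tested. Of the 66 calls of other named genes, 10 held in every fit that left out 1 library. No source says that same-numbered rats share a batch or day, though the headers of both male replicate 1 columns carry a suffix that is not explained. With 2 pairs the numbers were not taken as a pairing. Deviations of same-numbered rats correlated at 0.13 between naïve sexes, 0.73 in males, -0.0079 in females and -0.02 between CCI sexes. The block gave 4478 calls in males, 1180 in females and 314 for the interaction. At 59 to 94 counts for Tnfaip6 in naïve rats, counting error alone is wide.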
